A study of Mus musculus with 40 samples.

Results

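Cc2d2a, a gene of the base of the primary cilium, and 5 partner genes (Ahi1, Cep290, Rpgrip1l, Ift172 and Ift88) were followed in the cortex of mice given head impacts with or without memantine. Cc2d2a was chosen on its higher level in saline HF-HI than in saline sham in these same libraries, and the partners were chosen from knowledge of the cilium, so that difference of Cc2d2a is described here and not tested. Each of the 6 genes had 1 RefSeq transcript among the 6831 transcripts of the table, which carried 5846 gene symbols. RNA was sequenced from 40 libraries of male C57BL/6 mice aged 12 weeks, with 13322404 to 17529644 reads per library on these transcripts. The sham and HF-HI procedures were each combined with saline and with memantine, which gave 4 groups of 10 libraries. HF-HI stands for high-frequency head impact, given as closed-head impacts under isoflurane on successive days, and sham mice received the same anaesthesia and handling without impacts. Memantine, an NMDA receptor antagonist, or saline alone was injected intraperitoneally 1 h before each session, and the cortex was taken 24 h after the last session. All groups therefore carried repeated anaesthesia and injections, and no group was left unhandled.

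The primary cilium is a single antenna-like projection that most neurons and astrocytes of the cortex carry. It grows from a basal body, a modified centriole, and gathers receptors such as the Hedgehog receptor complex and several G protein-coupled receptors. At its base lies the transition zone, a gate of linked protein modules that controls which proteins enter and leave. Intraflagellar transport (IFT) particles, moved by kinesin-2 outward and by dynein-2 back, carry cargo along the axoneme. Loss of transition zone proteins, CC2D2A, AHI1, CEP290 and RPGRIP1L among them, causes Joubert syndrome and related ciliopathies in people.

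Regulatory factor X (RFX) proteins bind the X-box motif in the promoters of many cilium genes, so the promoters of the 6 genes were searched for it. RefSeq promoters (GRCm38.p6, 250 bases before to 50 bases after each start) were found for all 6 genes, 7 promoters in all. The X-box letters GTNNCNNNNGNAAC were searched on both strands and occurred in 3.83% of 32851 mouse promoters and in 1 of the 7, that of Ahi1. The core hexamer GTTGCC occurred in 12.5% of all promoters on either strand and in 3 of the 7, those of Ahi1 (inside the longer match), Ift172 and Ift88. The windows that hold the matches, with the matched letters in capitals, are shown 5′ to 3′ on the strand of the gene. They lie at chr10:20952560-20952589 (plus strand), chr5:31291097-31291126 (minus strand) and chr14:57424080-57424109 (plus strand). The letters are matched on both strands at the Ahi1 site, which begins at base 22 from the start, the Ift88 match begins at base 22 and the Ift172 match at base 1.
Ahi1: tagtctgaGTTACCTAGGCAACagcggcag
Ift172: tgtcgcactcacGTTGCCtgtgcgtcagcg
Ift88: ggagtcgcgcctGGCAACggctgggcgtcc
Neither set of letters occurred in the promoters of Cc2d2a, Cep290 or Rpgrip1l, which says only that these letters are not in those windows. For comparison, the 250 bases before the start of Cc2d2a (chr5:43662129-43662378, plus strand) are given without capitals.
Cc2d2a: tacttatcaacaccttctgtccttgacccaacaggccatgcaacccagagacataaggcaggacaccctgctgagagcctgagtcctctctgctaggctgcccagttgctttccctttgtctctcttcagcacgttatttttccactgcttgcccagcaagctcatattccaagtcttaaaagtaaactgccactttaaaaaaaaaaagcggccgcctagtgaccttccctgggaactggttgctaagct

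The 6 transcripts differed in level. Values are normalised read counts, recovered from the deposited log2-scale values, and a level per kilobase divides them by the length of the transcript. Ahi1 (NM_026203), which encodes the WD40 and SH3 domain protein jouberin, had the highest level, with 1293 counts per kilobase over the 40 libraries. Ift172 (NM_026298), a peripheral subunit of the IFT-B particle, had 335 counts per kilobase. Ift88 (NM_009376), a core subunit of the same particle, had 190 counts per kilobase, Cc2d2a (NM_172274) had 182, Cep290 (NM_146009) had 162 and Rpgrip1l (NM_173431) had 140. As counts not divided by length, the means were 6272 for Ahi1, 1810 for Ift172, 1295 for Cep290, 996 for Cc2d2a, 978 for Rpgrip1l and 585 for Ift88. Ift88 was near the lower edge of the table, with only 4.17% of its transcripts at or below that mean count.

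The genes lie apart from one another. On build mm10 (RefSeq positions, strands from GENCODE M21), Cc2d2a lies on chromosome 5 from 43662374 to 43740975 (plus strand) and Ift172 on the same chromosome from 31253279 to 31291391 (minus strand). Ahi1 lies on chromosome 10 from 20952232 to 21080429 and Cep290 on chromosome 10 from 100487548 to 100575671, both on the plus strand. Rpgrip1l lies on chromosome 8 from 91217030 to 91313291 (minus strand) and Ift88 on chromosome 14 from 57424064 to 57517936 (plus strand). RefSeq lists 5 curated transcripts of Cc2d2a and 3 of Ahi1, of which 1 each was in the table, so reads that the authors' counting gave to the others are not part of these values. No annotated gene overlaps Cc2d2a or Ift172, while Ahi1, Cep290, Rpgrip1l and Ift88 each overlap a gene on the opposite strand, none of them in the table. Whether the authors counted by strand is not given in the sources used here.

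Cc2d2a encodes a coiled-coil and C2 domain protein of the transition zone that is needed for the gate and for ciliary receptors to be retained. In saline sham its lowest, median and highest libraries had 820, 926 and 1010 normalised counts, and in saline HF-HI they had 1007, 1048 and 1104. The groups almost separated, with 1 library of each group inside the range of the other. The means were 919 ± 64.0 and 1050 ± 30.3 (SD, n = 10 each), a difference of 14.3%, or 0.077 ± 0.013 (SE) on the deposited log2 scale, and 10 of 10 saline HF-HI libraries lay above the saline sham mean. These are the values on which the gene was chosen. The group means of Cc2d2a were lowest in saline sham, followed by memantine sham and then memantine HF-HI.

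The rule used no memantine library, although the choice was made with earlier results of all groups known, and these libraries gave a smaller difference in the same direction. In memantine sham the lowest, median and highest libraries had 912, 978 and 1032 counts of Cc2d2a, and in memantine HF-HI they had 952, 1019 and 1136. The ranges overlapped, with 6 of 10 HF-HI libraries inside the sham range and 9 of 10 sham libraries inside the HF-HI range. The means were 983 ± 34.6 and 1031 ± 59.6 (SD, n = 10 each), a rise of 4.83% that passed the unadjusted threshold of the study by a small margin (0.027 ± 0.013 SE on the deposited scale, limma p = 0.0492, adjusted p = 0.967, higher in 8 of 10 libraries). That fit takes its spread from all 40 libraries, the saline ones on which the gene was chosen among them. Fitted to the memantine groups alone, limma gave p = 0.0528, which did not pass. A two-sided permutation test of these 20 values gave p = 0.0436. The 95% interval of the difference ran from -0.0851% to 9.78% on the log2(count + 1) scale, and 7 of 12 alternative settings and 25 of 40 fits without a single library put p above 0.05, up to p = 0.124 without memantine HF-HI replicate 2. Some of these 25 fits left out a saline library. That kept the difference at 0.027 and changed only the shared spread, with limma p up to 0.0525. Over the 12 settings p ran from 0.0236 to 0.0723. These settings are not all separate checks. With 1 transcript of Cc2d2a, summed transcripts gave the same difference as log2(count + 1), 0.0667, and log2(count + 10) gave 0.0661.

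**Figure D1:**
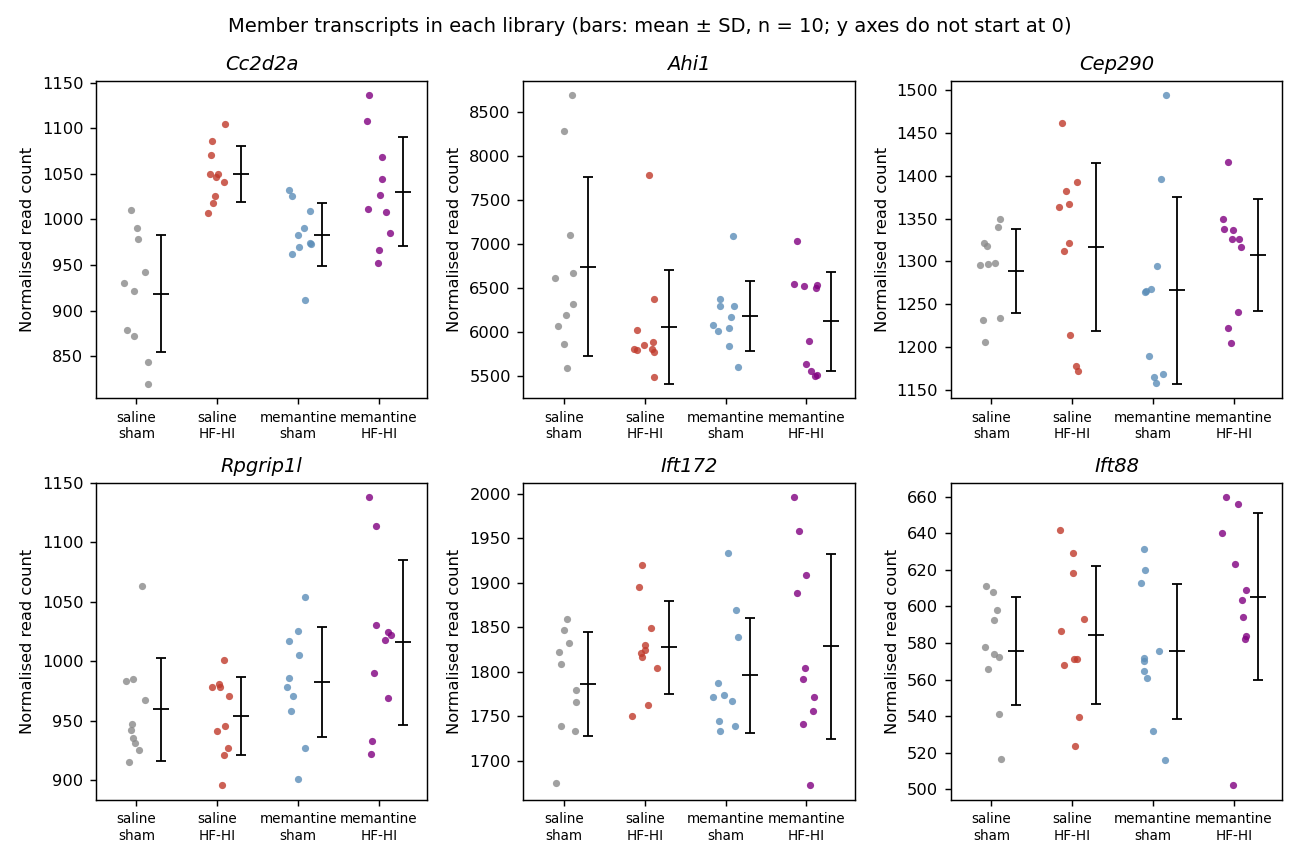
Normalised read counts (y axis, not starting at 0) of the 6 member transcripts in each of the 40 libraries, by group (x axis), with the mean and SD of 10 libraries as bars. Cc2d2a libraries of saline HF-HI (1007 to 1104) sit almost wholly above those of saline sham (820 to 1010), and 3 saline sham libraries of Ahi1 lie between 7097 and 8689.

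The spread of Cc2d2a also differed in size between the groups. The coefficient of variation was 6.96% in sham and 2.88% in HF-HI under saline, and 3.52% in sham and 5.79% in HF-HI under memantine. Counting error alone gives 3.07% at the mean of saline HF-HI, so the spread of these 10 libraries was no larger than counting error. This is a group on which the gene was chosen, and choosing a strong difference favours a small spread. Cc2d2a in saline HF-HI was the only 1 of the 24 combinations of member and group where this was so. Pooled over the groups, the coefficient of variation was 4.01% for Ift172, 5.04% for Rpgrip1l, 5.07% for Cc2d2a, 6.46% for Ift88 and 6.50% for Cep290. It was highest for Ahi1 at 10.8%, where counting error gives 1.26%.

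Of the 3 partners in the transition zone, 1 passed the unadjusted threshold under saline, and it was lower. Ahi1, a protein that binds in the same gate and also occurs in neuronal cytoplasm, had 5589, 6465 and 8689 counts in the lowest, median and highest saline sham libraries and 5478, 5825 and 7780 in saline HF-HI. The means were 6737 ± 1020 and 6055 ± 646 (SD, n = 10 each), so Ahi1 fell by 10.1%, in 9 of 10 libraries, at the unadjusted threshold (limma p = 0.0310, adjusted p = 0.485, 95% interval -17.6% to -0.977%). The ranges overlapped almost wholly, with 9 of 10 HF-HI libraries inside the sham range. The call rested on a few libraries: p was 0.0863 without saline sham replicate 6, 0.0506 without replicate 8 and 0.0964 without replicate 10, the 3 highest, and 0.0580 without saline HF-HI replicate 9, the lowest. On the deposited scale the difference was -0.11 in the main fit and -0.077 to -0.10 in these 4 fits. It was -0.11 in a fit of the saline groups alone (p = 0.0713) and -0.088 with the level of striatal markers as a covariate (p = 0.107).

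Cep290, a long coiled-coil protein that links the microtubules of the transition zone to the membrane, had 1289 ± 48.8 counts in saline sham and 1316 ± 98.1 in saline HF-HI (SD, n = 10 each). The lowest, median and highest libraries were 1206, 1297 and 1349 against 1172, 1342 and 1461, so the HF-HI libraries spread to both sides of the sham range. The difference was 2.13% (limma p = 0.494, 95% interval -3.86% to 8.08%). Rpgrip1l, a scaffold that anchors other modules of the gate, had 960 ± 43.5 and 954 ± 33.1 counts, with a difference of -0.592% (limma p = 0.808, 95% interval -5.08% to 4.18%). Its libraries ran from 915 to 1063 in saline sham and from 895 to 1001 in saline HF-HI, and the groups overlapped. The upper ends of both intervals lie below the 14.3% measured for Cc2d2a, which was itself selected as large. Under memantine, whose libraries the rule did not use, the upper ends were 9.71% (Cep290) and 8.25% (Rpgrip1l). Both lie above the 4.83% of Cc2d2a there, so those libraries do not set Cc2d2a apart from these partners.

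The pair of IFT-B subunits showed small differences that did not pass. Ift172, which is needed at the turn from outward to inward transport at the ciliary tip, had 1786 ± 58.4 counts in saline sham and 1827 ± 52.3 in saline HF-HI (SD, n = 10 each), a difference of 2.30% (limma p = 0.223, 95% interval -1.41% to 6.17%). Its libraries ran from 1676 to 1859 and from 1750 to 1920. Ift88, without which cilia do not assemble, had 576 ± 29.6 and 584 ± 37.9 counts, a difference of 1.47% (limma p = 0.645, 95% interval -4.69% to 7.88%). Its libraries ran from 517 to 611 and from 524 to 642. In both genes the saline groups overlapped over most of their range.

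Under saline, 1 of the 5 partners, Ahi1, passed the unadjusted threshold of p under 0.05, and it was lower where Cc2d2a was higher. In the same comparison 9.53% of all 6831 transcripts passed it, and 0.205% had an adjusted p under 0.1, with 0 of the 5 partners among the latter. Under memantine, 1 of the 6 members passed, Cc2d2a, where 4.61% of all transcripts did, and 0.0146% of all transcripts and 0 of the 6 members passed the adjusted threshold. The partners under memantine had differences of -0.981% (Ahi1, limma p = 0.806), 3.26% (Cep290, p = 0.257), 3.44% (Rpgrip1l, p = 0.157), 1.83% (Ift172, p = 0.344) and 5.20% (Ift88, p = 0.107), all adjusted p = 0.967 or higher. Of these, Ift88 exceeded its memantine sham mean in 9 of 10 memantine HF-HI libraries, with 575 ± 36.9 against 605 ± 45.8 counts (SD, n = 10 each). The exception was memantine HF-HI replicate 3 at 502 counts, and a fit without it, made after its value was seen, gave limma p = 0.0173 and adjusted p = 0.873.

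**Figure D2:**
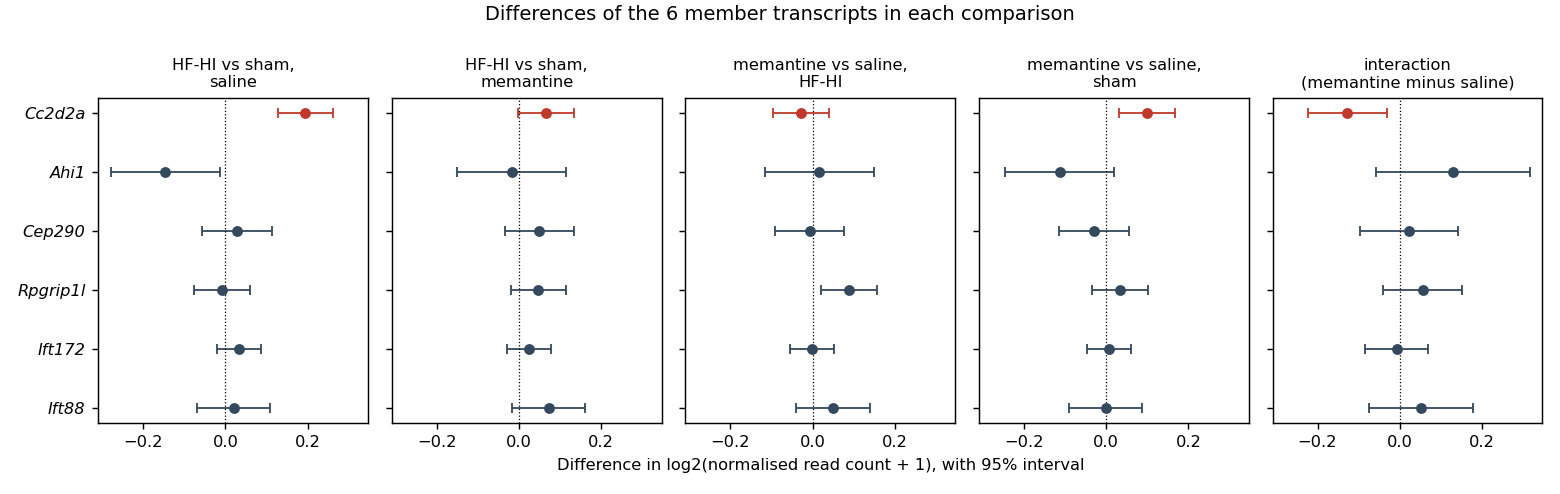
Difference of each member transcript in log2(normalised read count + 1) (x axis) in the 5 comparisons, with 95% intervals from limma as bars and Cc2d2a in red. The interval of Cc2d2a lies above 0 in the saline impact comparison that chose it and reaches 0 under memantine, while the intervals of Cep290, Rpgrip1l, Ift172 and Ift88 cover 0 in both impact comparisons.

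Memantine itself was compared with saline within each impact group. The impact and drug comparisons share libraries with one another, so their values are given side by side and are not independent. In the HF-HI groups, Rpgrip1l had 954 ± 33.1 counts under saline and 1016 ± 69.6 under memantine (SD, n = 10 each) and rose by 6.50% at the unadjusted threshold (limma p = 0.0107, adjusted p = 0.9995, 95% interval 1.49% to 11.4%). Its memantine HF-HI libraries ran from 922 to 1138, and 8 of 10 lay above the saline HF-HI mean. It was the only member to pass there, where 3.91% of all transcripts passed. The call held in 12 of 12 alternatives in which it was tested and in 40 of 40 fits without a single library. Fits that left out a sham library kept the difference and changed only the shared spread. Since Rpgrip1l has 1 transcript in the table, summing transcripts repeated the difference of the log2(count + 1) setting. Cc2d2a was 1.83% lower under memantine in the HF-HI groups, as a description.

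In the sham groups, 7.51% of all transcripts passed the unadjusted threshold and 0 of the 5 partners did. Ahi1 had 6737 ± 1020 counts under saline and 6178 ± 397 under memantine (SD, n = 10 each), a difference of -8.29% (limma p = 0.0871, 95% interval -15.7% to 1.32%). The other partners differed by -1.75% (Cep290) to 2.35% (Rpgrip1l). Cc2d2a was 7.0% higher under memantine in the sham groups, a value that shares the saline sham libraries on which the gene was chosen. The difference between the impact effects in the drug arms was tested as an interaction, in which 3.73% of all transcripts passed. For Cc2d2a the interaction was -0.050 ± 0.019 (SE) on the deposited scale, again a description, and for the 5 partners p ran from 0.167 (Ahi1) to 0.843 (Ift172).

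Other genes of the cilium were taken from lists by structure. Together the lists named 158 symbols, of which 59 were in the table with 66 transcripts, since it holds only abundant transcripts. Without the 6 members there were 60 transcripts, of which 3 were higher and 3 lower at an unadjusted limma p under 0.05 under saline, and 1 was higher and 1 lower under memantine. No transcript among these 60 had an adjusted p under 0.1 in limma (smallest 0.377 under saline and 0.809 under memantine). Their median difference was 0.0043 on the deposited log2 scale under saline and -0.0020 under memantine, where all transcripts with a symbol had medians of -0.00015 and -0.00032. The 6 of 60 under saline and 2 of 60 under memantine stand beside the 9.53% and 4.61% of all transcripts given above.

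The transition zone list had 5 of its 29 symbols in the table. Beside the 4 members these included Csnk2a1, a catalytic subunit of casein kinase 2, which had 3340 ± 152 counts in saline sham and 3319 ± 98.0 in saline HF-HI (SD, n = 10 each; limma p = 0.710). The tectonic and B9 domain genes of the list were not among these 5 symbols. Of the basal body and centriole list, 23 transcripts were in the table. Under saline 2 were higher and 1 was lower at the unadjusted threshold, which 9.53% of all transcripts passed. Nin (NM_001081453), the subdistal appendage protein ninein, rose by 8.98%, from 1510 ± 137 to 1646 ± 90.7 counts (limma p = 0.0383, 10 of 10 libraries above the sham mean). Ccp110 (NM_182995), a cap of the mother centriole that keeps cilia from growing until it is removed, rose by 6.41%, from 2094 ± 148 to 2228 ± 138 counts (limma p = 0.0266, 8 of 10 libraries above). Akap9 (NM_194462), a large anchor of protein kinase A at centrosome and Golgi, fell by 6.52%, from 7575 ± 495 to 7081 ± 528 counts (limma p = 0.0351, 9 of 10 libraries below). Under memantine, where 4.61% of all transcripts passed the unadjusted threshold, none of the 23 passed in limma at the unadjusted or the adjusted threshold. Nin, Ccp110 and Akap9 had differences of -0.108%, 0.423% and -1.12% there. The interaction for these 3 transcripts, which were named for their saline values, was -0.064 ± 0.040 (Nin), -0.046 ± 0.030 (Ccp110) and 0.062 ± 0.048 (Akap9) (SE) on the deposited scale, as a description.

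No transcript of the IFT lists passed under saline or memantine in limma at an unadjusted p under 0.05, where 9.53% and 4.61% of all transcripts did. All 5 IFT-B transcripts (Ift57, Ift80, Ift81, Ift88 and Ift172) and all 3 IFT-A transcripts (Ift140, Wdr19 and Wdr35) had positive differences in both impact comparisons. Of all 6801 transcripts with a symbol, 3392 were positive under saline and 3365 under memantine. The median was 0.017 on the deposited log2 scale for IFT-B and 0.011 for IFT-A under saline. Ift81, the tubulin-binding partner of Ift74 and among these the one with the smallest p (chosen after its value was seen), had 893 ± 41.2 counts in saline sham and 938 ± 23.0 in saline HF-HI (SD, n = 10 each). Its difference was 5.0%, with 10 of 10 HF-HI libraries above the sham mean and limma p = 0.0606.

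Among 10 transcripts of ciliary motors, 1 was higher and 1 lower under saline at the unadjusted threshold, which 9.53% of all transcripts passed. Kif3a and Kif3b form the kinesin-2 motor of outward transport and also move cargo in axons. Kif3b (NM_008444) fell by 3.68%, from 1885 ± 52.9 to 1815 ± 63.2 counts (SD, n = 10 each, limma p = 0.0222, 9 of 10 libraries below). Kif3a (NM_001290805) rose by 12.1%, from 2844 ± 396 to 3189 ± 242 counts (limma p = 0.0121, 9 of 10 libraries above). Its other transcript in the table, NM_008443, had a difference of -27.1% (limma p = 0.0809), and reads of these isoforms can be split between them. The summed counts of the 2 Kif3a transcripts were 3507 ± 389 and 3672 ± 136, a difference of 4.71% that did not pass (limma p = 0.112).

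Of the BBSome list, which carries membrane proteins out of the cilium, 0 of 4 transcripts passed in limma under saline at either threshold. The unadjusted threshold was passed by 9.53% of all transcripts under saline and 4.61% under memantine. Under memantine, Bbs2 (NM_026116) rose by 10.8%, from 597 ± 27.9 to 661 ± 55.2 counts (SD, n = 10 each, limma p = 0.00152, adjusted p = 0.809, 9 of 10 libraries above). Its difference under saline was 1.23% (limma p = 0.681), and the interaction of impact and drug was 0.042 ± 0.020 (SE) on the deposited scale (adjusted limma p = 0.999), a description since the gene was named for its memantine value. Of 5 Hedgehog pathway transcripts, 0 passed under saline in limma at either threshold, and Ptch1 (NM_008957), the Hedgehog receptor and a target of the pathway, fell by 17.8% under memantine, from 1405 ± 243 to 1156 ± 365 counts (limma p = 0.0393, 9 of 10 libraries below). Its libraries there ran from 986 to 1721 in sham and from 511 to 1727 in HF-HI, and its interaction, a description for the same reason, was -0.21 ± 0.092 (SE) on the deposited scale (adjusted limma p = 0.999). The 3 transcripts of RFX factors did not pass in limma in either impact comparison.

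**Figure D3:**
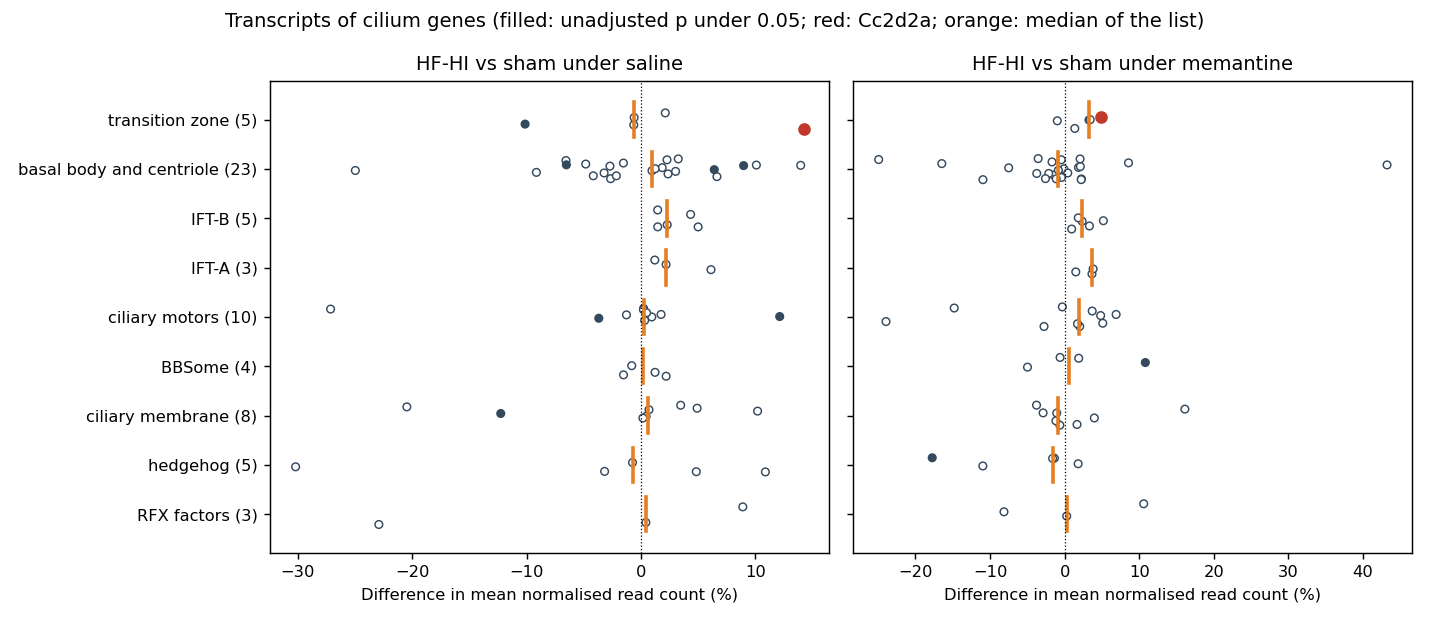
Difference in mean normalised read count between HF-HI and sham (x axis, percent) for each transcript of the cilium lists (rows, with the number of transcripts), under saline and under memantine. Filled points passed an unadjusted limma p under 0.05, the orange bar is the median of the list and Cc2d2a is red. List medians lie near 0, and Cc2d2a, chosen for its saline value of 14.3%, is at 4.83% under memantine. The partners there are at 5.20% (Ift88), 3.44% (Rpgrip1l), 3.26% (Cep290), 1.83% (Ift172) and -0.981% (Ahi1).

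Markers of cell types and of neighbouring tissue were measured in the same libraries. In tissue RNA, fewer cells of a type and less RNA per cell cannot be told apart. Of 21 symbols of ependyma and motile cilia, whose cells are rich in cilium proteins, the table held 1, S100b, which astrocytes also express, at 1581 ± 109 counts in saline sham and 1599 ± 120 in saline HF-HI (SD, n = 10 each). Of 8 choroid plexus symbols it held 1, Ttr, which ran from 74.5 to 22031 counts over the libraries, with group means between 2862 and 5833. With the Ttr level as a covariate, added after seeing the data, Cc2d2a under memantine had limma p = 0.0498. All 16 neuronal symbols were in the table, and their summed counts (22 transcripts) were 176672 ± 6054 in saline sham and 178518 ± 6429 in saline HF-HI, and astrocyte markers (17 transcripts) 149901 ± 5844 and 151613 ± 2782. Microglial markers (6 transcripts) were 5666 ± 361 and 5943 ± 277 and endothelial markers (4 transcripts) 3718 ± 203 and 3911 ± 243. Oligodendrocyte markers (17 transcripts) were 61902 ± 6185 and 62087 ± 7733. At an unadjusted limma p under 0.05 under saline, where 9.53% of all transcripts passed, 3 neuronal transcripts were higher and 2 lower, and 2 astrocyte, 2 microglial, 2 endothelial and 1 oligodendrocyte transcripts were higher and 0 lower. Under memantine, where 4.61% of all passed, 0 neuronal transcripts passed, 2 astrocyte, 2 microglial and 1 endothelial transcripts were higher and 0 lower, and 1 oligodendrocyte transcript was higher and 1 lower. The part of these cells in the levels of the members was not tested.

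Markers of the striatum, which lies under the cortex, moved with the saline groups. Their 20 transcripts summed to 50988 ± 6608 counts in saline sham (37551 to 60678) and 44502 ± 3856 in saline HF-HI (38236 to 52608). In limma, 10 of 20 were lower and 0 higher at an unadjusted p under 0.05, where 9.53% of all transcripts passed. Under memantine the sums were 50927 ± 6310 and 49314 ± 5916. There 0 of 20 passed in limma at either threshold, where 4.61% of all transcripts passed the unadjusted one. With their mean as a covariate, 0 transcripts under saline had an adjusted limma p under 0.1, against 14 without it. Because this covariate itself differed between the saline groups, its part and that of impact cannot be told apart there. The difference of Cc2d2a under memantine was then 0.025 on the deposited scale against 0.027 without the covariate (limma p = 0.0671). Under saline, where the gene was chosen, the difference of Cc2d2a was 0.071 against 0.077, as a description. That of Ahi1 under saline was -0.088 against -0.11 (limma p = 0.107), and that of Ift172 under saline was 0.032 against 0.017 (limma p = 0.0225, adjusted p = 0.787).

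The libraries were then compared with one another, with the group means removed, on the log2(count + 1) scale. Among 28 relations of the 6 members, the striatal marker mean and Ttr over 40 libraries, no relation of Cc2d2a with a partner passed. Pearson's r of Cc2d2a ran from -0.144 (Ift172, permutation p = 0.421) to -0.0094 (Cep290, permutation p = 0.946), and Spearman's rho from -0.190 (Ahi1) to -0.0081 (Ift88), with adjusted p of 0.742 or more. Counting error gives 3.17% for Cc2d2a beside its pooled coefficient of variation of 5.07%. Such error lowers any r, so a weaker relation could be missed. Cep290 and Ift88 varied together (r = 0.492, permutation p = 0.0020, adjusted 0.0408, rho = 0.496, permutation p = 0.0024, adjusted 0.0354), and r was 0.484 without the 2 libraries farthest from the median of Cep290. For Cep290 and Ttr rho was 0.394 (permutation p = 0.0129, adjusted 0.0906), while r was 0.282 (permutation p = 0.0905, adjusted 0.507). Without the same 2 libraries that r was 0.395. The IFT-B subunits stood in opposite relations to the striatal marker mean. For Ift172 r was 0.452 (permutation p = 0.0044, adjusted 0.0408) and rho 0.449 (adjusted 0.0493), and for Ift88 r was -0.469 (permutation p = 0.0038, adjusted 0.0408) and rho -0.478 (adjusted 0.0354), with r of 0.449 and -0.452 without the 2 farthest libraries. Cc2d2a had r = -0.158 with the striatal marker mean (permutation p = 0.384) and 0.0783 with Ttr (permutation p = 0.651).

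**Figure D4:**
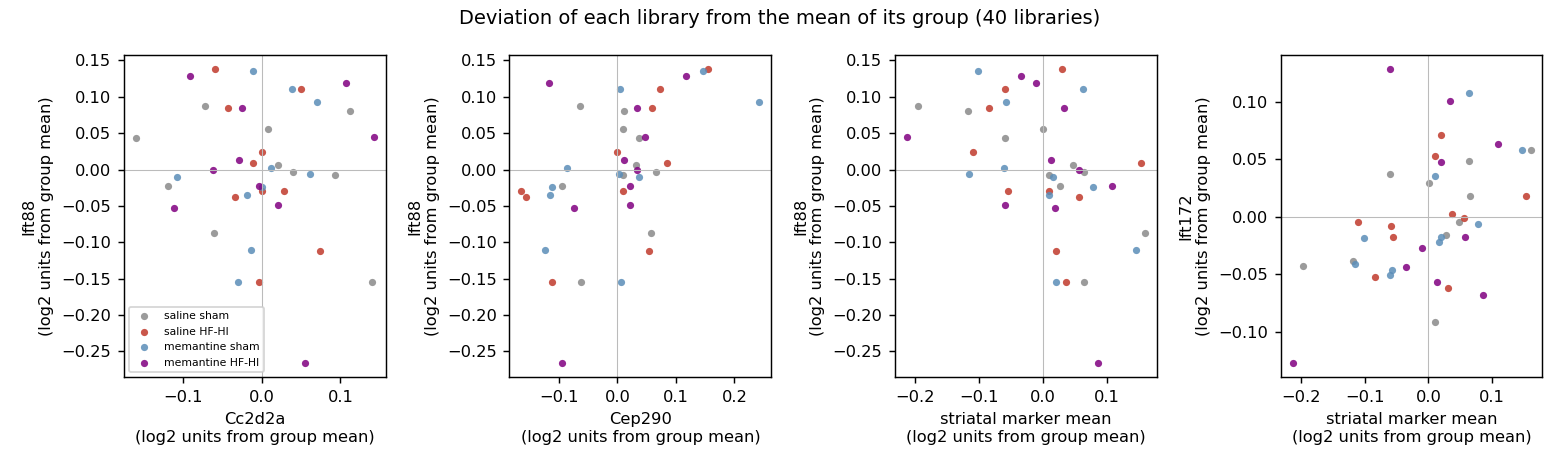
Deviation of each of the 40 libraries from the mean of its group, in log2 units, for 4 of the 28 relations. Cc2d2a and Ift88 are scattered (r = -0.0772), Cep290 and Ift88 rise together (r = 0.492), and Ift88 (r = -0.469) and Ift172 (r = 0.452) run in opposite directions against the striatal marker mean.

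The cilium lists made up only 59 of the 5846 symbols of the table, so their absence among 5 genes says little. The 5 genes whose deviations were most like those of Cc2d2a over the 40 libraries were not in these lists. Among 5875 symbols or unnamed transcripts, they were Cramp1l (r = 0.603), Ireb2 (0.596), Parva (0.580), Rtn3 (0.569) and Rad54l2 (0.565), given as a description, and r over all of them ran from -0.627 to 0.603 with a median of 0.00036. The partners ranked from 3024 (Cep290) to 4305 (Ift172) in that order. Of the genes next to Cc2d2a on chromosome 5, Fbxl5, an iron-sensing subunit of a ubiquitin ligase that lies downstream on the other strand (43744615 to 43821638), was in the table. Fbxl5 (NM_001159963) had 2485 ± 115 counts in saline sham and 2548 ± 124 in saline HF-HI (SD, n = 10 each), a difference of 2.52% that did not pass (limma p = 0.275). Under memantine its difference was -0.953% (limma p = 0.674).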

How the data were processed

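Cortical RNA of 40 libraries was sequenced by the authors. According to the methods of the study, reads were aligned to mm10 with STAR, counted per transcript with eXpress and scaled with size factors. The submitters' processing notes name HISAT2 and StringTie instead, so the counter is not settled. The deposited values are variance-stabilised counts on a log2 scale, and the threshold by which the authors kept 6831 abundant transcripts is not given in the sources used here. The deposited scale is compressed at low counts, with a slope of 0.40 at 1000 counts. The transformation was inverted with its floor of 10.4 (a count of 0). In every library 100% of values under 5000 were then whole multiples of 1 step (tolerance 0.05 reads), with 13322404 to 17529644 reads per library. Counting error was computed from the recovered reads of each transcript in each library, and error bars here cover the spread between libraries. Symbols came from RefSeq (GRCm38.p6) for 99.6% of transcripts, as did the positions of the members. Transcript lengths, strands, and overlapping and neighbouring genes came from GENCODE M21.

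limma 3.58.1 (R 4.3.3, lmFit and eBayes with trend) was fitted to all transcripts and libraries with a term per group, and p-values were adjusted by the method of Benjamini and Hochberg over all 6831. Calls are counted at an unadjusted p under 0.05, the criterion of the study in this experiment, and at an adjusted p under 0.1. Percent differences compare mean normalised counts, and their 95% intervals come from limma on log2(count + 1). Permutation tests were two-sided with 100000 resamples (Python 3.11.15, scipy 1.17.1, numpy 2.4.6), within groups for correlations. The procedure was tested on simulated data. The sample labels give 10 libraries per group, while the design text of the series names 4 samples per group, and neither says that each library is a separate mouse. The labels were followed, n counts libraries, and p-values measure the spread between these libraries. No batch is given. The members and all gene lists were chosen with earlier results of these data known. Named transcripts are the members, those of each cilium list with p under 0.05 in either impact comparison (at most 4 per list), the 5 symbols most correlated with Cc2d2a and its neighbours. A result that this rule named is not reported here. Alternatives were a replicate block, log2(count + 1) and log2(count + 10), summed transcripts, quantile and median scaling, library weights, no trend, a count filter of 1000, the groups compared alone, a striatal covariate and each library left out. A Ttr covariate and voom on the recovered reads were added after seeing the data.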

Additional observations from a re-analysis of the deposited data

Results flagged for a closer look

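Among the 24 sets of 10 libraries (6 members in 4 groups), 4 held a library whose gap to its nearest neighbour, divided by the range, was above Dixon's critical value for 10 samples. Chance flags about 1 set in 20. Ahi1 was flagged in saline HF-HI replicate 1, at 7780 counts where the group mean was 6055, and in memantine sham replicate 9, at 7091 counts where the group mean was 6178. Rpgrip1l was flagged in saline sham replicate 3, at 1063 counts. Ift88 was flagged in memantine HF-HI replicate 3, at 502 counts, the lowest value of any member in the data. No Cc2d2a group was flagged.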

How the results depend on the processing

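The direction of Cc2d2a held in each comparison under each alternative that could be fitted, while its call under memantine did not. Every comparison but impact under memantine holds saline libraries on which Cc2d2a was chosen, so its direction in those is a description. The number of members passing under memantine, 1 in the main fit, was 0 with the replicate block, log2(count + 1), log2(count + 10), summed transcripts, a count filter of 1000, no trend, the groups compared alone and the striatal covariate, and 0 to 1 without single libraries. The paired fit with a replicate block gave Cc2d2a p = 0.0723 there. Replicate numbers do not show a pairing: correlations of same-numbered libraries exceeded 0.1 in 0 to 2 of 10 pairs, and 1 of 10 matched best with its own number in each comparison. With the block, the partners passing were 1 under saline, 1 for memantine in HF-HI, 0 for memantine in sham and 0 for the interaction, the counts of the main fit. The partners passing under saline were 0 with the groups compared alone and 0 to 1 without single libraries. The filter of 1000 removed Cc2d2a, Rpgrip1l and Ift88, and the partners passing for memantine in HF-HI were then 0. They were 2 there with the striatal covariate (Ift88 besides Rpgrip1l). For memantine in sham the partners passing were 1 with library weights and 0 to 1 without single libraries, in each case Ahi1 (without saline sham replicate 1 or 7 or memantine sham replicate 9). Values that changed sign were near 0: Rpgrip1l under saline was 0.00031 with quantile scaling and -0.0063 to 0.0034 without single libraries, Ift88 under saline was -0.0098 with the striatal covariate, Ahi1 under memantine was -0.029 to 0.0046 without single libraries, and r of Cc2d2a and Ift172 was 0.0186 without the 2 farthest libraries. Causes of these shifts were not tested.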
